A study of Mus musculus with 7 samples.

Results

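The mouse genes described here lie on chromosome 4 within 5 Mb on each side of Pla2g2e, the gene deleted in the knockout mice of this study. A gene was a member if its array probe started in that stretch of the mm9 assembly and its signal was well above background on 3 or more of the 7 arrays. Each gene was read by its brightest probe. The Pla2g and Padi families, C1qa, C1qb and C1qc were left out by the rule, which set aside 13 measured genes. Of 216 other gene names with a probe in the stretch, 187 passed and 29 did not, so the set held 187 of the 23288 genes and transcripts measured in all. The 3 arrays labelled KO day 3 came from brain of Pla2g2e -/- mice, and the 3 labelled WT day 3 from wild type mice. Both were taken on day 3 after a 60 min transient occlusion of the middle cerebral artery, a stroke model in which blood flow then returns. A single array labelled WT sham came from wild type brain, and the labels say no more of that operation. All mice were male and C57BL/6N. The labels give neither age, nor how the deletion was made, nor which bases it removed.

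Genes that lie close together on a chromosome are linked: crossing-over seldom separates them, and they are passed on as a block. A chromosomal neighbourhood has no shared function, and the members here ranged from transcription factors and enzymes to cell surface proteins and many transcripts known only by a clone or model name. In a knockout comparison, the neighbours of the deleted gene are the genes most closely linked to the deletion. Expression of these neighbours was compared between KO and WT arrays gene by gene, and the share of members that separated the genotypes was set beside the same share over all measured genes.

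Each sample was read on its own array in 1 colour, and 31177 to 34029 of 43020 spots were well above background, with none saturated. Values are log2 signal minus the log2 of each array's own 75th percentile, so 0 is the level of a fairly bright spot. The members' mean over the 7 arrays ran from -7.61 to 6.03 with a median of -0.97, against a median of -1.44 over all measured genes. The 3 KO arrays lay on 1 slide and the 4 wild type arrays on the other, and here the slide cannot be told apart from the genotype. The brighter Pla2g2e probe read -4.44, -5.83 and -4.97 on the KO arrays, -6.89, -3.68 and -3.36 on the WT day 3 arrays and -4.69 on the sham array, and so did not separate the arrays by genotype. A dimmer second Pla2g2e probe read -7.94, -8.44 and -7.84 on the KO arrays, where it was not above background, -9.00, -6.72 and -6.50 on the WT day 3 arrays and -6.83 on sham. It was above background on WT day 3 replicates 2 and 3 and on sham only, and these 3 lay above every KO array, while WT day 3 replicate 1 lay below. The array labelled WT day 3 replicate 1 stood apart from the other 6, with correlations of 0.857 to 0.916 over all genes against 0.968 to 0.991 among the others. On it the mean of 8 genes of injured brain was -2.93, against 3.98 to 4.59 on the other 6 arrays, and the mean of 4 neuron markers was 4.73, against 1.09 to 2.71. The sham array read 4.01 for the genes of injured brain, within the range of the other 5 arrays. The genes of injured brain thus go against the labels of both arrays, and the files do not settle whether those labels were exchanged. WT day 3 and sham are used as labelled throughout, and a comparison with sham cannot be read as one with uninjured brain. All 4 markers of neurons, of astrocytes, of oligodendrocytes and of microglia were well above background on every array. None of the marker lists read (those 4, injured brain, red blood cells, endothelium, choroid plexus and muscle) separated the 3 KO arrays from WT day 3 replicates 2 and 3 and sham. In RNA from whole tissue, fewer cells of a type and less RNA per cell cannot be told apart. Where leaving out WT day 3 replicate 1 ends or makes a call of a named member, both values are given.

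Against the 3 WT day 3 arrays, 21 of the 187 members (11.2%) had KO values that did not overlap the WT values, where 4.53% of all genes did. Of these, 12 were lower on all KO arrays (6.42% of members, against 2.65% of all genes) and 9 were higher (4.81%, against 1.88%). Against all 4 wild type arrays, 16 members (8.56%) did not overlap, against 3.02% of all genes. They were 9 lower (4.81%, against 1.67%) and 7 higher (3.74%, against 1.34%), and all 16 were among the 21. In both directions the members' share was above that of all genes. Of the 7 higher, 2 were above background on KO arrays only, and of the 9 lower, Gm6687 on wild type arrays only. Their separation was thus partly set by the filter. Leaving out any 1 array of a comparison raised its count of members without overlap. The counts became 29 to 65 against WT day 3 and 21 to 57 against the 4 wild type arrays. Fewer arrays overlap less often, over all genes too. Without WT day 3 replicate 1 the share of all genes rose from 3.02% to 6.12% against the wild type arrays. For the other arrays left out that share is not given here, so those counts cannot be set against all genes. Both counts were highest without KO replicate 2, and why was not tested. With the 160 members that were above background on all 7 arrays, the share was 9.38% against WT day 3 (4.28% of all such genes) and 7.50% against the 4 wild type arrays (2.81%).

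By limma, 11 members (5.88%) had an unadjusted p under 0.05 in KO against WT day 3, where 0.842% of all genes did. They were 6 lower (0.627% of all genes) and 5 higher (0.215%). The 11 became 7 without KO replicate 1, 6 without KO replicate 3 and 17 without WT day 3 replicate 1. After Benjamini-Hochberg adjustment over all genes, 0 members and 0 genes of any kind passed 0.05 (0%). Against all 4 wild type arrays, 13 members (6.95%) had an unadjusted p under 0.05, against 1.17% of all genes, 8 of them lower (0.812% of all genes) and 5 higher (0.356%). After adjustment 1 member passed in limma (0.00429% of all genes), and 0 did without KO replicate 1, 2 or 3, WT day 3 replicate 2 or sham. That member passed the filter only through the KO arrays, where it was high, so its direction was set by the filter. Over all members the median log2 difference was -0.07 from WT day 3 and -0.06 from the 4 wild type arrays, against -0.03 and -0.02 over all genes. Nothing in the labels says that each replicate is another animal, so the p-values speak only for the spread among these arrays, part of which may be technical.

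**Figure D1:**
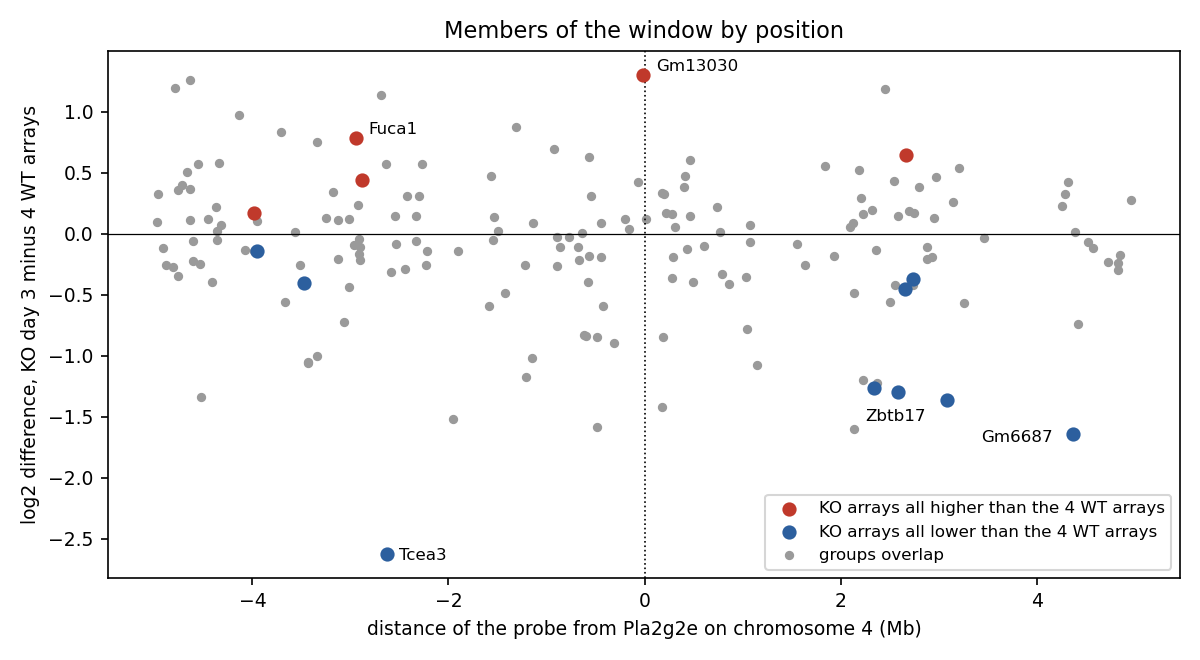
Each point is 1 of 185 members drawn, placed by the distance of its probe from Pla2g2e in Mb (x axis) and by its log2 difference, KO day 3 minus the 4 WT arrays (y axis). The 5 red and 9 blue points are drawn members whose KO and WT arrays do not overlap, and Tcea3, at -2.62, lies lowest.

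Leaving out the array that stood apart made the shares larger. Without WT day 3 replicate 1, 27 members (14.4%) did not overlap between the 3 KO arrays and the other 3 wild type arrays, against 6.12% of all genes. Of these 17 were lower (9.09%, against 2.72%) and 10 higher (5.35%, against 3.40%). The 16 members named by all 4 wild type arrays were all among the 27. In the same fit 18 members (9.63%) had an unadjusted p under 0.05, against 1.85% of all genes, 13 lower (1.22% of all genes) and 5 higher (0.636%), and 2 passed after adjustment (0.00859% of all genes), Tcea3 among them (limma, adjusted p = 0.00541). Against WT day 3 replicates 2 and 3 alone, 17 members (9.09%) had an unadjusted p under 0.05 in limma, against 1.63% of all genes. They were 13 lower (1% of all genes) and 4 higher (0.623%), and 0 passed after adjustment (0%).

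Tcea3, an elongation factor of the TFIIS family that helps a stalled RNA polymerase II to resume, was the member lowest on KO arrays relative to wild type. Its probe lies 2.63 Mb from Pla2g2e at chr4:135810420-135810479 on the plus strand of mm9, and its 60 bases, shown because the gene has no second probe here, read as an open frame.
Tcea3: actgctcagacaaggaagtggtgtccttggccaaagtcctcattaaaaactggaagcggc

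Tcea3 read -6.02, -5.86 and -6.02 on the KO arrays, against -4.50, -2.93 and -3.01 on the WT day 3 arrays and -2.93 on the sham array. The 3 KO values lay within a narrow band, and so did the 3 wild type values other than WT day 3 replicate 1, which fell between the bands but still above every KO value. The means were -5.96 ± 0.09 for KO and -3.48 ± 0.88 for WT day 3 (SD, n = 3 each). The difference was -2.49 ± 0.46 (SE; limma, unadjusted p = 0.00193, adjusted p = 0.862). Against the 4 wild type arrays it was -2.62 ± 0.42, a 6.16-fold lower signal (adjusted p = 0.818). Without WT day 3 replicate 1 the wild type mean was -2.96 ± 0.05 (SD, n = 3), and Tcea3 fell by 3.01 on the log2 scale, 8.04-fold, with an SE of 0.11 (limma, adjusted p = 0.00541). The 13 spots around it had a median KO minus wild type difference of 0.11.

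Of 15 measured members that encode transcription factors, chromatin proteins or elongation factors, 3 were lower on KO arrays than on WT day 3 arrays at an unadjusted p under 0.05 (limma) and 0 were higher, where 0.627% of all genes were lower and 0.215% higher. Against the 4 wild type arrays 2 were lower and 1 was higher, where 0.812% and 0.356% of all genes were. With WT day 3 replicate 1 left out, 2 were lower and 0 higher, where 1.22% and 0.636% of all genes were. Their median log2 difference was -0.04 from WT day 3 and 0.11 from the 4 wild type arrays. The 3 lower members were Tcea3, Zbtb17 and Pax7, and the 1 higher against the 4 wild type arrays was Tceb3, now called Eloa. Of the 4 brightest members of this list, Hp1bp3, Zfp46, Kdm1a and Spen, Zfp46 had the largest difference from WT day 3, at -0.40, and -0.24 without replicate 1.

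Zbtb17, also known as Miz-1, a zinc finger factor that partners Myc at promoters, was well above background on 1 KO array and on all 4 wild type arrays. It read -7.39, -6.80 and -7.71 on the KO arrays, against -4.90, -6.40 and -6.26 on the WT day 3 arrays and -6.46 on sham. All KO values lay below all wild type values, and WT day 3 replicate 1 was the highest of the 7. The difference was -1.29 ± 0.44 against the 4 wild type arrays (SE; limma, unadjusted p = 0.0235) and -0.93 ± 0.25 without WT day 3 replicate 1 (unadjusted p = 0.0103). Its probe, at chr4:141023790-141023849 on the plus strand, overlaps by 31 bases the probe of its neighbour Spen on the opposite strand. The probe holds the letters AATAAA, the usual signal for the end of a messenger RNA, as did 24.6% of the members' probes and 14.6% of all. It is shown because probes of both genes lie here, with 30 of its 60 bases, 5′ to 3′, and the AATAAA letters in capitals.
Zbtb17: tttgtattttttAATAAAgtttgtaatcca

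Spen, a large repressor of transcription, read 1.56, 1.31 and 1.62 on KO arrays, against 1.34, 1.40 and 1.35 on WT day 3 arrays and 1.33 on sham, and the groups overlapped.

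Pax7, a paired box factor of muscle stem cells and of the developing dorsal brain, lies 0.86 Mb from Pla2g2e and was near the floor of detection. It read -6.48, -6.97 and -6.47 on the KO arrays, against -6.01, -5.75 and -5.51 on the WT day 3 arrays and -7.64 on sham, where it was not above background. KO values thus lay below the WT day 3 arrays and above the sham array. The difference was -0.88 ± 0.24 from WT day 3 (SE; limma, unadjusted p = 0.0120, adjusted p = 0.862). The KO mean was at least 1.92-fold above the sham array, which is a bound against the dimmest signal well above background there.

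Tceb3, elongin A, another factor that helps RNA polymerase II along, read -0.49, -0.90 and -0.49 on KO arrays, against -1.30, -1.0 and -0.93 on WT day 3 arrays and -1.03 on sham. The lowest KO value lay just above the highest wild type value. The difference was 0.44 ± 0.18 against the 4 wild type arrays (SE; limma, unadjusted p = 0.0497), and 0.36 ± 0.15 without WT day 3 replicate 1 (unadjusted p = 0.0567). The zinc finger genes Zfp46 and Zbtb40 were lower on all KO arrays than on all WT day 3 arrays, with differences of -0.40 ± 0.22 and -0.22 ± 0.17 (SE) and unadjusted p of 0.117 and 0.256 in limma. Both overlapped once the sham array was included.

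**Figure D2:**
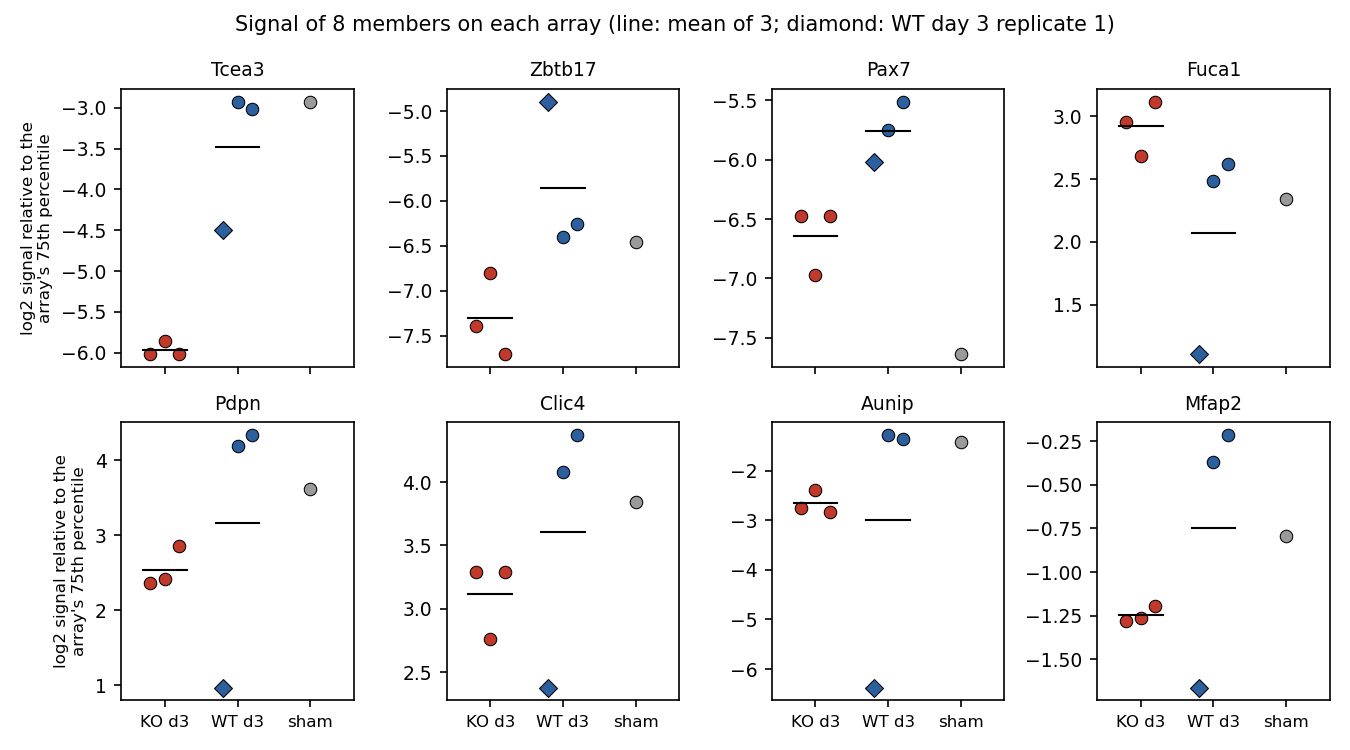
Log2 signal relative to the array's 75th percentile (y axis) for 8 members on the 3 KO day 3, 3 WT day 3 and 1 sham arrays, with a line at the mean of 3 and a diamond for WT day 3 replicate 1. Tcea3 and Zbtb17 lie lower and Fuca1 higher on every KO array, and in Pdpn, Clic4, Aunip and Mfap2 the diamond lies below the KO points while the other wild type points lie above them.

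Several genes of the cell surface, the cytoskeleton and the matrix gave results that rest on 1 array. Pdpn, a mucin-type glycoprotein of lymphatic endothelium and of astrocytes after injury, lies 4.42 Mb from Pla2g2e. It read 2.36, 2.42 and 2.85 on the KO arrays, against 0.97, 4.19 and 4.34 on the WT day 3 arrays and 3.62 on sham. With WT day 3 replicate 1 the groups overlapped, and the difference was -0.74 ± 0.82 from the 4 wild type arrays (SE; limma, unadjusted p = 0.398). Without it the KO arrays were lower by -1.51 ± 0.24, 2.85-fold, with no overlap (unadjusted p = 0.000942). Its dimmer second probe read -1.72, -1.84 and -1.47 on KO arrays, against -4.14, -0.96 and -0.82 on WT day 3 arrays and -1.39 on sham. The second probe thus also lay below the wild type arrays other than replicate 1, by -0.62 in the means. The sequences of both are shown because they read different stretches of the gene: the brighter, at chr4:142857339-142857398, holds an AATAAA signal, of which 30 bases are given, and the dimmer, at chr4:142859087-142859146, has an open frame and no such signal. Both are on the minus strand of mm9.
Pdpn: gacatcttttcaAATAAAacctgattgtgt
Pdpn second probe: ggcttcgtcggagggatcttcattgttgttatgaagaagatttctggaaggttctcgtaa

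Clic4, a chloride intracellular channel protein that also takes part in the actin cytoskeleton, showed the same order of arrays. It read 3.29, 2.76 and 3.29 on KO arrays, against 2.38, 4.08 and 4.37 on WT day 3 arrays and 3.85 on sham. Without WT day 3 replicate 1 the difference was -0.99 ± 0.22 (SE; limma, unadjusted p = 0.00435), and with it -0.56 ± 0.49 (unadjusted p = 0.293). Its dimmer probe read -1.94, -2.10 and -1.94 on KO arrays, against -4.05, -1.53 and -1.50 on WT day 3 arrays and -1.91 on sham.

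Aunip, a centrosome protein that binds Aurora A kinase, read -2.76, -2.38 and -2.83 on KO arrays, against -6.37, -1.28 and -1.36 on WT day 3 arrays and -1.42 on sham. The low value on WT day 3 replicate 1 set the sign of the comparison. The difference was 0.35 ± 1.43 from WT day 3 with it (SE; limma, unadjusted p = 0.817) and -1.34 ± 0.18 without it (unadjusted p = 0.000951). Against the 3 remaining wild type arrays the signal was 2.47-fold lower on KO arrays.

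Mfap2, a protein of elastic microfibrils, read -1.28, -1.27 and -1.19 on KO arrays, against -1.66, -0.37 and -0.21 on WT day 3 arrays and -0.79 on sham. The difference was -0.79 ± 0.17 without WT day 3 replicate 1 (SE; limma, unadjusted p = 0.00447) and -0.49 ± 0.36 with it (unadjusted p = 0.215). Its dimmer probe was lower on KO arrays by -0.56 in the means without that array. Fblim1, or migfilin, which joins filamin to cell adhesions, read 1.19, 0.72 and 1.38 on KO arrays, against -1.92, 2.04 and 2.15 on WT day 3 arrays and 1.38 on sham. The highest KO value and the sham value were close. Its difference from the 4 wild type arrays was 0.19 ± 0.99 with replicate 1 (SE, limma, unadjusted p = 0.856). Without that array it was -0.76 ± 0.27 (limma, unadjusted p = 0.0347), so the array set the sign.

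In all, 11 members separated the genotypes only once WT day 3 replicate 1 was left out, 8 lower and 3 higher on KO arrays. On 7 of those 8 the left-out array had the lowest of the 7 values. The share lower went from 4.81% to 9.09% of members, and from 1.67% to 2.72% of all genes. That higher went from 3.74% to 5.35% of members, and from 1.34% to 3.40% of all genes. In the higher direction the rise among members was thus no larger than over all genes. Besides Pdpn, Clic4, Aunip, Mfap2 and Fblim1, the lower members were Pnrc2, a cofactor of nuclear receptors and of messenger RNA decay, Tmem82, a membrane protein, and Lypla2, an enzyme that removes fatty acids from proteins. Pnrc2 read 1.60, 1.63 and 1.79 on KO arrays, against 1.54, 2.32 and 2.41 on WT day 3 arrays and 2.16 on sham. Its unadjusted p against the wild type arrays was 0.120 with replicate 1 and 0.00271 without it, and that of Tmem82 was 0.498 and 0.000768 (limma). The higher members were Hnrnpr and Hp1bp3, which bind RNA and chromatin, and Tmem51os1, a transcript opposite to another gene. These were named after their values were seen, and the difference between fits with and without that array was not tested. The genes of injured brain and of neurons move with the same array, and their part in these results was not tested.

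**Figure D3:**
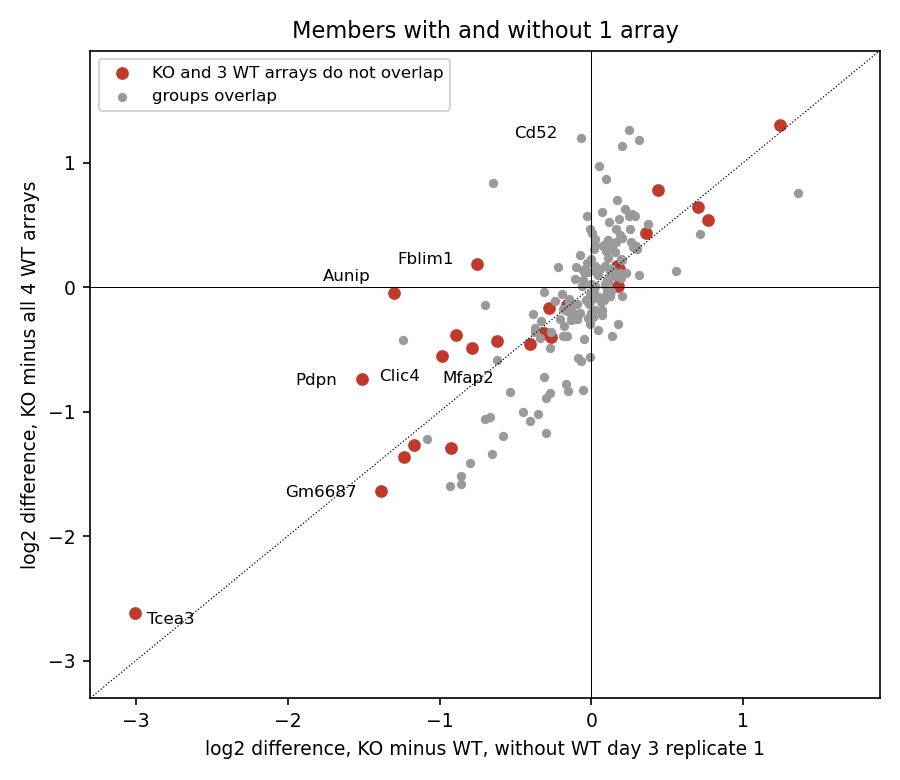
Each point is 1 member, with its log2 difference, KO minus WT, without WT day 3 replicate 1 (x axis) and with all 4 WT arrays (y axis). The dotted line marks equal values and red points do not overlap between KO and the other 3 WT arrays. Of 185 members drawn, 25 are red. Tcea3, Pdpn, Aunip, Clic4, Mfap2 and Fblim1 all lie above the line, with a lower difference without that array.

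Of the 18 measured receptors, ligands and cell surface proteins in the stretch, 0 had an unadjusted p under 0.05 in limma in KO against WT day 3 (0.842% of all genes) or against the 4 wild type arrays (1.17%). Without WT day 3 replicate 1, 1 did (1.85% of all genes), Pdpn, and 0 of the 18 passed after adjustment in these fits. Of the brightest of them, Nbl1, a secreted antagonist of bone morphogenetic proteins, read 3.21, 2.63 and 4.08 on KO arrays, against 2.21, 3.23 and 3.73 on WT day 3 arrays and 2.74 on sham. Cd52, a surface peptide of leukocytes, read 3.73, 3.62 and 3.43 on KO arrays, against -1.40, 3.78 and 3.51 on WT day 3 arrays and 3.69 on sham. Apart from WT day 3 replicate 1, the arrays lay between 3.43 and 3.78. Igsf21, an adhesion molecule of synapses, read 0.55, 0.54 and -0.13 on KO arrays, against 3.41, 0.01 and 0.65 on WT day 3 arrays and 1.51 on sham.

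Of 14 members of the cytoskeleton and of small GTPase or kinase signalling, 0 had an unadjusted p under 0.05 against WT day 3 in limma (0.842% of all genes). Against the 4 wild type arrays 1 did (1.17% of all genes), Arhgef19, an exchange factor for small GTPases, whose groups overlapped and which was named after its values were seen. It read -3.76, -2.29 and -3.69 on KO arrays, against -1.62, -2.17 and -2.48 on WT day 3 arrays and -1.84 on sham. Its difference was -1.22 with WT day 3 replicate 1 (limma, unadjusted p = 0.0231) and -1.08 without it (0.0503), which ends the call. Stmn1, which destabilises microtubules, and Cdc42, a small GTPase of cell polarity, were the brightest. Stmn1 read 4.68, 5.01 and 4.25 on KO arrays, against 5.66, 4.81 and 4.72 on WT day 3 arrays and 4.96 on sham. Cdc42 read 4.94, 4.45 and 4.80 on KO arrays, against 3.32, 4.74 and 4.62 on WT day 3 arrays and 4.35 on sham. Camk2n1, an inhibitor of calmodulin-dependent kinase II, read 2.96, 2.92 and 2.91 on KO arrays, against 5.09, 3.09 and 2.88 on WT day 3 arrays and 3.02 on sham. In all 3 the KO and WT day 3 values overlapped, and WT day 3 replicate 1 was the highest of the 7 for Stmn1 and Camk2n1 and the lowest for Cdc42.

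Some genes of mitochondria were among the brightest members, while those of RNA processing and of protein turnover reached lower levels. Of 11 mitochondrial or metabolic members, 0 had an unadjusted p under 0.05 in limma against WT day 3 (0.842% of all genes) or the 4 wild type arrays (1.17%), and their median difference from the 4 wild type arrays was 0.02. Minos1, now Micos10, which shapes the inner membrane, read 5.09, 4.91 and 5.11 on KO arrays, against 4.60, 5.0 and 5.05 on WT day 3 arrays and 4.81 on sham. Sdhb, a subunit of succinate dehydrogenase, read 4.82, 4.79 and 4.58 on KO arrays, against 4.81, 4.56 and 4.70 on WT day 3 arrays and 4.61 on sham. Pink1, a kinase that marks damaged mitochondria, read 3.63, 3.65 and 3.48 on KO arrays, against 4.39, 3.57 and 3.61 on WT day 3 arrays and 3.51 on sham. Mtfr1l, a regulator of mitochondrial fission, ran from 2.43 to 2.73 on KO arrays, against 2.48 to 2.61 on WT day 3 arrays and 2.55 on sham. Likewise 0 of 8 members of RNA processing and translation and 0 of 8 of ubiquitin and protein turnover had an unadjusted p under 0.05 in those 2 comparisons. Among them Srrm1, a splicing coactivator, lay between 2.99 and 3.15 on all 7 arrays, and Ubr4, a ubiquitin ligase, between 2.34 and 2.79.

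Of 11 members of the endoplasmic reticulum, Golgi and lysosome, 0 had an unadjusted p under 0.05 with all arrays in limma. The share of all genes was 0.842% against WT day 3 and 1.17% against the 4 wild type arrays. Only 1 member separated KO from the 4 wild type arrays (3.02% of all genes). This was Fuca1, the lysosomal enzyme that removes fucose from glycoproteins. It read 2.96, 2.69 and 3.12 on KO arrays, against 1.1, 2.49 and 2.62 on WT day 3 arrays and 2.34 on sham. The difference was 0.78 ± 0.39 from the 4 wild type arrays (SE; limma, unadjusted p = 0.0868) and 0.44 ± 0.16 without WT day 3 replicate 1 (unadjusted p = 0.0330). Lypla2, Plekhm2 and Atp13a2 were the brightest of this list, with KO means of 4.16, 4.19 and 3.93 and WT day 3 means of 4.28, 4.03 and 3.86.

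Small separations of well measured genes made up part of the count. Rsrp1, an arginine and serine rich protein, read 3.97, 4.06 and 4.11 on KO arrays, against 4.14, 4.25 and 4.19 on WT day 3 arrays and 4.19 on sham. Tmem50a, a membrane protein, read 2.51, 2.38 and 2.54 on KO arrays, against 2.31, 2.34 and 2.36 on WT day 3 arrays and 2.21 on sham. Rcan3, a regulator of calcineurin, read -1.01, -1.1 and -0.99 on KO arrays, against -0.22, -0.95 and -0.82 on WT day 3 arrays and -0.53 on sham. In these 3 the groups did not overlap but differed by -0.14 ± 0.14, 0.17 ± 0.14 and -0.40 ± 0.21 from the 4 wild type arrays (SE), with unadjusted p of 0.329, 0.267 and 0.101 in limma. Ifnlr1, a chain of the interferon lambda receptor, was separate from WT day 3 only, by 0.47 ± 0.31 (limma, unadjusted p = 0.185) and 0.15 without replicate 1, and on sham it lay within the KO range.

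Of the 16 members that separated KO from all 4 wild type arrays, 12 were in none of the role lists, and several were transcripts with a model or clone name. ENSMUST00000097813, which the array files describe as a predicted transcript of Rsg1, a small GTPase gene, read -6.71, -6.71 and -6.37 on KO arrays, against -5.03, -5.62 and -5.13 on WT day 3 arrays and -5.55 on sham. It differed by -1.27 ± 0.21 from the 4 wild type arrays (SE; limma, unadjusted p = 0.000687). ENSMUST00000123068 read -6.17, -6.04 and -7.06 on KO arrays, against -4.66, -5.20 and -5.81 on WT day 3 arrays and -4.56 on sham, a difference of -1.36 ± 0.40 (unadjusted p = 0.0115). Against WT day 3 its unadjusted p was 0.0307 with replicate 1 and 0.0694 without it (limma). In both, every KO array lay below every wild type array.

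Gm6687 was well above background on 0 of the 3 KO arrays and on all 4 wild type arrays. It read -8.23, -7.68 and -7.75 on KO arrays, against -5.49, -6.59 and -6.97 on WT day 3 arrays and -5.94 on sham. Its signal was at least 2.20-fold lower on KO arrays than on the 4 wild type arrays (limma, adjusted p = 0.818). Its measured means were -7.89 ± 0.30 for KO (SD, n = 3) and -6.25 ± 0.66 for wild type (SD, n = 4). It passed the filter only through the wild type arrays, as did 1700013G24Rik, and Gm13030 only through the KO arrays.

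The long non-coding RNA B330016D10Rik was higher on KO arrays, where it read -4.12, -4.17 and -3.85, against -4.52, -4.64 and -4.61 on WT day 3 arrays and -5.0 on sham. Its difference from the 4 wild type arrays was 0.64 ± 0.18 (SE; limma, unadjusted p = 0.0107). AI507597, another long non-coding RNA, was lower, with -6.66, -6.85 and -6.88 on KO arrays, against -6.26, -6.47 and -6.50 on WT day 3 arrays and -6.48 on sham. Gm4123 read -3.69, -3.58 and -4.0 on KO arrays, against -3.15, -3.46 and -3.48 on WT day 3 arrays and -3.12 on sham. These last 2 differed by -0.37 ± 0.15 and -0.45 ± 0.19 (SE), with unadjusted p of 0.0476 and 0.0472 in limma. Their unadjusted p without WT day 3 replicate 1 was 0.0341 for AI507597 and 0.0595 for Gm4123. E130218I03Rik was above background on 2 of 3 KO arrays and on none of the WT day 3 arrays, and was at least 1.24-fold higher on KO arrays than on those (limma, adjusted p = 0.862), with sham among the KO values.

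The 4 nearest members on the lower side were 4930563F15Rik, Ubxn10, an unnamed probe and Gm13030, and on the higher side Otud3, Tmco4, Htr6 and ENSMUST00000105802. Of these 8, 1 had an unadjusted p under 0.05 against WT day 3 (0.842% of all genes) and against the 4 wild type arrays (1.17%) in limma. It was Gm13030, whose probe lies 0.01 Mb from that of Pla2g2e. It entered the set only through the KO arrays, so that it differed was fixed by the filter. Its unadjusted p without WT day 3 replicate 1 was 0.0558 against WT day 3 and 0.0240 against the other wild type arrays. Gm13030 read -6.70, -7.39 and -6.51 on KO arrays, against -8.34, -8.81 and -7.44 on WT day 3 arrays and -8.07 on sham, and was above background on no wild type array. Its signal was at least 1.55-fold higher on KO arrays than on the 4 wild type arrays (limma, adjusted p = 0.818), with measured means of -6.86 ± 0.46 for KO (SD, n = 3) and -8.17 ± 0.57 for wild type (SD, n = 4). Otud3, a deubiquitinase and the brighter of the immediate neighbours, read 0.72, 0.35 and 0.74 on KO arrays, against 0.21, 0.66 and 0.75 on WT day 3 arrays and 0.30 on sham. Tmco4 read 1.01, 0.78 and 1.04 on KO arrays, against -0.33, 1.01 and 0.81 on WT day 3 arrays and 0.95 on sham. Htr6, a serotonin receptor, was above background on 1 of 3 KO arrays and 2 of 4 wild type arrays, with a range of -8.69 to -6.84 on KO arrays, against -7.07 to -4.26 on WT day 3 arrays.

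By distance, 2 of the 88 members within 2.5 Mb of Pla2g2e separated KO from the 4 wild type arrays (2.27%), and 14 of the 99 members between 2.5 and 5 Mb did (14.1%). On the lower side of the chromosome 7 of 106 did (6.60%) and on the higher side 9 of 81 (11.1%). Beyond the window, 3 of 184 genes at 5 to 10 Mb did (1.63%), and 26 of 1014 farther along chromosome 4 (2.56%), against 3.00% of the genes on other chromosomes or with no position. Without WT day 3 replicate 1 the shares were 4.55% within 2.5 Mb, 23.2% at 2.5 to 5 Mb, 4.89% at 5 to 10 Mb and 4.54% beyond. Several of the separating members sat close together: the probes of Zbtb17, Gm4123, B330016D10Rik and AI507597 all lie between 2.59 and 2.73 Mb on the higher side. Of these, B330016D10Rik was higher on KO arrays and the others lower. Spen, Fblim1 and Tmem82 lie in the same stretch and overlapped between KO and the 4 wild type arrays. The ends of this stretch were set after the values were seen. These shares are descriptions of these arrays, and the difference between the inner and outer parts of the window was not tested. At the ends of the window, the outermost members 4930429E23Rik and Gm13084 and the first genes outside it, Rps6ka1 and Gm13083, all overlapped between KO and WT day 3 arrays. 4930429E23Rik ran from -6.78 to -6.24 on KO arrays, against -7.41 to -5.93 on WT day 3 arrays, and Gm13084 from -4.62 to -3.58, against -4.64 to -3.81. Rps6ka1 ran from 3.07 to 3.24, against 0.91 to 3.13, and Gm13083 from -7.63 to -7.16, against -7.74 to -6.99.

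**Figure D4:**
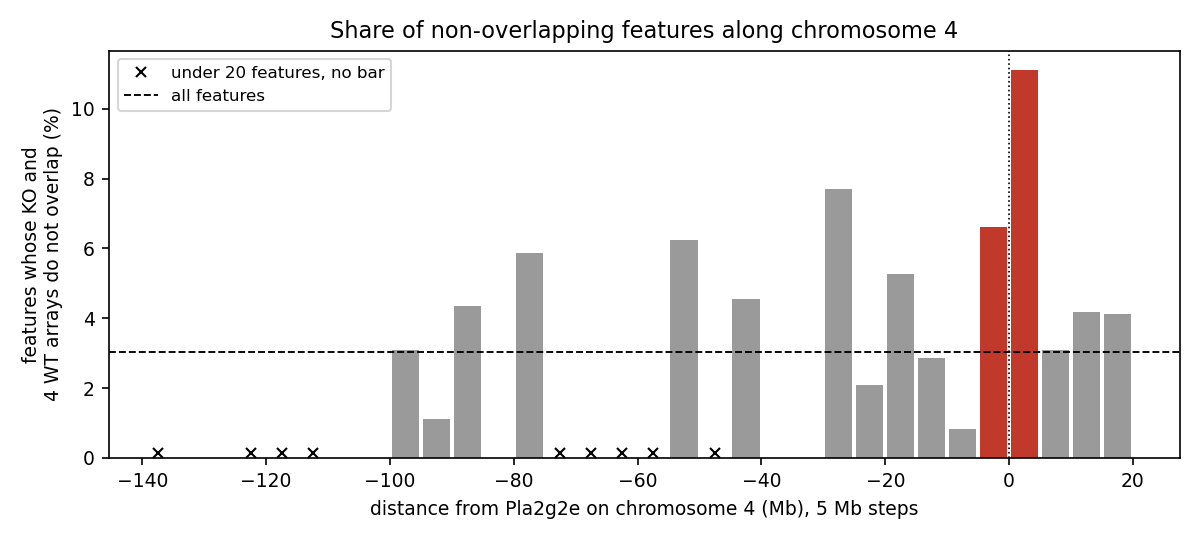
Bars give the percent of genes in each 5 Mb step of chromosome 4 whose KO and 4 WT arrays do not overlap (y axis), by distance from Pla2g2e in Mb (x axis). The 2 red steps are the members, at 6.60% and 11.1%, the dashed line is the share of all genes, 3.02%, and crosses mark steps of under 20 genes.

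Against the sham array alone, 11 members (5.88%) had an unadjusted p under 0.05 in limma, against 1.31% of all genes. They were 4 lower (0.447% of all genes) and 7 higher (0.859%) on KO arrays. After adjustment 3 genes passed on the whole array (0.0129%), 0 of them members. The sham group holds 1 array, which the fit assumes to vary like the day 3 arrays, and the 2 comparisons share the KO arrays. Its label is in doubt, as given for the genes of injured brain, so these 11 members do not stand for a comparison with uninjured brain. Tcea3 was lower by -3.03 ± 0.65 (SE; limma, unadjusted p = 0.00391). Grhl3, a transcription factor of epithelia, read -4.42, -5.23 and -5.30 on KO arrays and -3.92, -4.94 and -4.72 on WT day 3 arrays, against -9.37 on sham, where it was not above background. It was at least 6.05-fold higher on KO arrays than on sham (limma, adjusted p = 0.602). On the sham array 6 of the 14 spots around the Grhl3 spot were also lower by over 2 on the log2 scale than on the other arrays.

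Array by array, WT day 3 replicate 1 held the lowest or the highest value of the 7 in 65 and 77 members, 75.9% in all, against 78.2% of all measured genes. Members far below the other 6 arrays on it included Runx3, a factor of lymphocytes and sensory neurons, at -9.93 against -5.31 to -3.66, and E2f2, a cell cycle factor, at -3.36 against 0.16 to 0.70. Cd52 and the ephrin receptor Epha2 were also among them, Epha2 at -3.94 against -0.89 to 0.31. Members far above included Sh2d5, an adaptor protein of brain, at 3.96 against 0.06 to 2.02, Rap1gap, which switches off the GTPase Rap1, at 4.88 against 0.81 to 3.38, and Fam43b at 1.66 against -3.07 to -0.44. These were named after their values were seen. None of these 7 separated KO from wild type arrays with that array left out. Other members far below on it, Aunip, Fblim1 and Pdpn among them, did separate without it, as given above.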

How the data were processed

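RNA from 7 mouse brain samples was hybridised, 1 per array, to Agilent arrays of 60-base probes, labelled with Cy3, per the labels' protocols. The authors deposited spot intensity files of Agilent Feature Extraction 11.5.1.1, whose processed signal is background-subtracted and detrended within each array, per the file headers. They also deposited a table of values that holds a linear ratio, each processed signal over its array's 75th percentile, to within 0.0428%, with column medians of 0.0863 to 0.0976. It served as an alternative. Probe positions are those in the files, on mm9.

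Here log2 of the processed signal minus its 75th percentile over the non-control spots of the array was used. Spots with an outlier flag (91 to 147 an array) were left out and spots of a probe averaged. Genes go by the file's names; 136 of the 187 members matched a RefSeq accession (GRCm38.p6, for names only), which renamed 9 and placed 2, Klhl25 and Ccnd3, on other chromosomes. All 23288 genes were fitted with limma 3.58.1 in R 4.3.3 (lmFit, eBayes; 4 residual and 1.68 prior degrees of freedom), with two-sided p-values adjusted by Benjamini-Hochberg over the whole array, in a model of the 3 groups, or of KO and wild type for the 4 wild type arrays. With 3 arrays against 3, the number of arrays limits the precision. For a probe not above background in a group, an "at least" fold sets the brighter group's mean against a floor, which on each array is the dim probe itself or, where brighter, the dimmest probe well above background. Figures were drawn with matplotlib 3.10.9.

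Named genes are 6 given with the set (Tcea3, Pax7, Zbtb17, Pdpn, Aunip and Clic4), up to 12 non-overlapping members in each direction by p in the comparisons with WT day 3 and with all 4 wild type arrays, the 4 nearest members on each side, those at the window's ends and up to 4 of the brightest in each of 7 role lists, which hold 85 members. Some members that the rule names are counted but not reported here by name, and the figures leave them out. The members and lists were chosen with earlier results of these data known. Other background correction, normalization, filters, spread model, probes, window width, and arrays left out were tried. The fit was tested on simulated data.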

Additional observations from a re-analysis of the deposited data

Results flagged for a closer look

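Among the 4 wild type arrays, WT day 3 replicate 1 lay far from the other 3 in 4 of the 24 members tested. The test used the gap to the nearest value, with a nominal rate of about 1 in 20. That rate holds for arrays of 1 group and for members not picked by their values. Most of the 24 were named because their KO and wild type values did not overlap, so the count cannot be set against that rate. WT day 3 replicate 1 held the lowest or highest value of all arrays in 75.9% of members and 78.2% of all genes. It was the low one for Tcea3, at -4.50 against -3.01 for the next lowest, and for Aunip, at -6.37 against -1.42. It was the high one for Zbtb17, at -4.90 against -6.26, and for AI507597, at -6.26 against -6.47. In Tcea3, Zbtb17 and AI507597 the KO values lay below all 4 wild type values with or without it. These 4 arrays join the WT day 3 and sham groups.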

How the results depend on the processing

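Against WT day 3, 11 members had an unadjusted p under 0.05 in limma (5.88%, against 0.842% of all genes). The count was 5 with the normexp background correction, 5 with a filter on all 7 arrays (161 members tested), 3 in a window of 2.5 Mb on each side (88 members), 17 without WT day 3 replicate 1 and sham together (chosen after seeing the data), and 6 to 17 without 1 array in turn. Against sham, 11 became 7 with normexp, 6 with that filter and 7 to 12 without 1 array. Against all 4 wild type arrays, 13 became 3 in the narrower window, and 9 to 18 without 1 array; the 1 called member became 0 with normexp, 0 with that filter, 0 in the narrower window and 0 to 2 without 1 array. At an unadjusted p under 0.05 in limma, 1.17% of all genes were called against the 4 wild type arrays. Without WT day 3 replicate 1 the share of all genes was 1.63% against WT day 3 and 1.85% against the wild type arrays. For the other fits it is not given here, so their counts cannot be set against all genes. Members without overlap numbered 29 to 65 against WT day 3 and 21 to 57 against the 4 wild type arrays without 1 array. Fewer arrays make overlap rarer over all genes too. Both of these counts were highest without KO day 3 replicate 2. The 4 sign changes under normexp were small: Pax7 at 0.029 and AI507597 at 0.017 from the 4 wild type arrays, Zbtb17 at 0.11 from sham and Aunip at -0.092 from WT day 3. Aunip was -1.34 from WT day 3 without replicate 1, with or without sham in the fit, where leaving out 1 array gave -1.34 to 1.21. From the 4 wild type arrays it was 0.024 with quantile normalization and -1.30 to 0.39 without 1 array. The cause of the changes under normexp was not tested; it moved the median of all genes by 0.11 against sham. Of 768 values for 24 named members under all settings, 749 kept their direction and their side of an adjusted p of 0.05 (limma). Only 1 member passed that level with all arrays, so few values could change side and the count does not measure stability. At an unadjusted p under 0.05 several named members changed side without WT day 3 replicate 1, as given for each. The labels do not say that replicate numbers pair the samples. Deviations from the group mean correlated at -0.38, -0.556 and 0.353 between arrays of the same number. WT day 3 replicate 1, which stood apart, enters each wild type deviation, so these values cannot settle whether samples were paired. The limma fit with a replicate block gave 11 members at an unadjusted p under 0.05 and 0 after adjustment. A slide block could not be fitted, since each slide held 1 genotype. Dim signals limit Gm13030, Gm6687, Pax7 and Zbtb17, which were not above background on some arrays.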
